A study of Mus musculus with 12 samples.

Results

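The CXC chemokines described here are 8 of the 43131 genes in a table of read counts from mouse bone marrow-derived macrophages (BMDMs). They were taken by name, not by level: Cxcl1, Cxcl2, Cxcl3 and Cxcl5, which carry the glutamate-leucine-arginine (ELR) motif, Cxcl9, Cxcl10 and Cxcl11, the interferon type, and Cxcl16, which belongs to neither type. The libraries, 12 in all, stand under 4 column headings with 3 libraries each. Those headed LPS- tlr4f/f (here LPS- f/f) or LPS- tlr4f/f-lysM-cre (LPS- cre) are of unstimulated BMDMs. Those headed LPS+ tlr4f/f (LPS+ f/f) or, for the other genotype, LPS+ tlr4f/f-lysM-cre (LPS+ cre) are of BMDMs given 1 µg/mL of lipopolysaccharide (LPS) for 6 h. Every group was grown from bone marrow with M-CSF (50 ng/mL) over 7 days, and every group, the controls included, carries the floxed tlr4 allele. In the second genotype the lysM (Lyz2) locus drives Cre, which acts in myeloid cells, so the loss of tlr4 is that of a cell lineage and not of the whole animal. Nothing in the labels says whether the libraries of a group come from separate mice, so p-values measure only the spread between these libraries, which may be technical. The headings LPS- cre and LPS+ f/f may have been exchanged, and each comparison is therefore named under both readings.

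CXC chemokines are small secreted proteins that guide leukocytes along a gradient. The ELR members bind CXCR2 on neutrophils, and in macrophages their genes are transcribed mainly through NF-kB after Toll-like receptor signalling. CXCL9, CXCL10 and CXCL11 bind CXCR3 on activated T cells and NK cells, and their genes respond to interferons through JAK kinases and IRFs, in the case of LPS largely through interferon-beta made after TRIF signalling. CXCL16 is made as a membrane protein, is shed by ADAM10 and ADAM17, and binds CXCR6.

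The genes of each type lie together. On GRCm38.p6, RefSeq places the ELR members on chromosome 5 within 146.6 kb, in the order Cxcl5 (chr5:90759298-90761625), Cxcl3 (chr5:90786101-90788093), Cxcl1 (chr5:90891245-90893121) and Cxcl2 (chr5:90903899-90905938). The interferon type starts 1415 kb further on the same chromosome and spans 42.0 kb, with Cxcl9 (chr5:92321331-92328079), Cxcl10 (chr5:92346638-92348889) and Cxcl11 (chr5:92359544-92363296). Cxcl16 is on chromosome 11 (chr11:70454389-70459984). The deposited table and RefSeq class Cxcl11 as a transcribed pseudogene, since the reference strain C57BL/6 carries a broken reading frame, so its counts here are of RNA. The promoters of 5 of the 8 members were found in RefSeq's sequences (GRCm38.p6). They are shown with matches to the NF-kB consensus and to the interferon-stimulated response element (ISRE, GAAANNGAAA) in capitals. Each is read 5′ to 3′ on the strand of the gene and ends at the base before the transcription start.
Cxcl1, plus strand, chr5:90891125-90891244: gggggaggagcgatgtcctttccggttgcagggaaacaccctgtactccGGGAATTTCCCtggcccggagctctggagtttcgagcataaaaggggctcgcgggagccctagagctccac
Cxcl2, plus strand, chr5:90903779-90903898: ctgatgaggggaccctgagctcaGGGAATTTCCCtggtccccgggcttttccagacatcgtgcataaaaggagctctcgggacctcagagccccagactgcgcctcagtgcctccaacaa
Cxcl3, plus strand, chr5:90785981-90786100: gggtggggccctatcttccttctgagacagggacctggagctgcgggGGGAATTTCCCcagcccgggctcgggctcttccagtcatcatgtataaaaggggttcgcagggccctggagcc
Cxcl10, minus strand, chr5:92348890-92349109: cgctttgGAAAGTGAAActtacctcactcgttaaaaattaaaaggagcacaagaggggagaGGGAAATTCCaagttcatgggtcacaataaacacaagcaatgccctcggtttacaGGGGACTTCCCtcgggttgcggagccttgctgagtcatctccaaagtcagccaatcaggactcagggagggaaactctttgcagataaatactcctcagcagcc
Cxcl9, minus strand, chr5:92328080-92328199: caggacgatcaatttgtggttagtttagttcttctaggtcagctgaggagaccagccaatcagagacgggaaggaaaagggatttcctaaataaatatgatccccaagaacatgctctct

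The same 11 letters, GGGAATTTCCC, stand at -71 to -61 of Cxcl1, -97 to -87 of Cxcl2 and -73 to -63 of Cxcl3, counted from the transcription start. Cxcl10 has different letters that match the NF-kB consensus at 2 places, -159 to -150 and -104 to -94, and an ISRE at -213 to -204 that overlaps neither. Both strands of 300 bases around each start were searched, from 250 before it to 50 after it, and matches that overlap were taken as 1 place. Of all 32851 promoters of that length, 8.46% hold the NF-kB consensus, 3.44% the ISRE and 8.30% the gamma-activated site (GAS, TTCNNNGAA). None of these 3 motifs was found in the window of Cxcl9, and no ISRE or GAS in those of Cxcl1, Cxcl2 and Cxcl3, which says only that these letters are not there.

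Counts of the leading transcripts summed to between 33577087 and 56445268 per library, and levels are given as CPM, the counts scaled to a common library total with TMM factors. The levels of Tlr4, the targeted gene, went against the headings. Its mean was 115 ± 35.3 CPM (SD, n = 3) in the libraries headed LPS- f/f and 110 ± 12.5 in those headed LPS- cre, but 27.7 ± 3.40 in those headed LPS+ f/f and 25.6 ± 1.64 in those headed LPS+ cre. Lyz2, into which the lysM-cre allele is inserted, split the same way, with at least 5950 CPM in every library headed LPS- and at most 75.6 in every library headed LPS+. All 6 macrophage markers (Adgre1, Cd68, Csf1r, Itgam, Fcgr1, Mertk) were present in each group, with a summed level between 3913 and 9239 CPM. Some libraries stood apart within their group. Replicate 3 headed LPS- f/f had no count of Cxcl1, Cxcl9 or Cxcl11 and the most Lyz2. The 3 replicates headed LPS- cre differed from each other in raw counts of the ELR members. The highest was 12.3 to 19.1 times the lowest for Cxcl1, Cxcl2 and Cxcl3, and 65.9 times for Cxcl5.

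In the libraries headed LPS- f/f and LPS+ f/f the chemokines other than Cxcl16 were low, and in both sets headed cre they were high. The 8 genes together took at most 0.0314% of the counts of any library headed f/f, between 0.456% and 1.29% of those headed LPS- cre and between 0.371% and 0.476% of those headed LPS+ cre. Ranked per length (CPM per kb), Cxcl16 led under both f/f headings, with 73.7 ± 27.8 and 23.6 ± 7.40. Cxcl2 and Cxcl10 followed it there, with 7.03 ± 6.56 and 5.31 ± 4.22 in the libraries headed LPS- f/f, a difference within their spread, and 6.30 ± 0.394 and 2.80 ± 0.365 in those headed LPS+ f/f, a difference beyond it.

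The order under the cre headings was another. In the libraries headed LPS- cre, Cxcl10 (3958 ± 1361 CPM per kb) and Cxcl2 (3365 ± 3648) were highest and did not differ beyond their spread. Cxcl3 (757 ± 944), Cxcl1 (598 ± 650) and Cxcl16 (243 ± 45.1) came next, again without a difference beyond the spread between neighbours, and Cxcl11 (36.4 ± 21.9), Cxcl9 (32.3 ± 5.58) and Cxcl5 (14.8 ± 22.7) were lowest. In the libraries headed LPS+ cre, Cxcl2 (2030 ± 432 CPM per kb) stood clear of Cxcl3 (756 ± 109), which did not differ from Cxcl10 (641 ± 151) beyond the spread. Below these were Cxcl1 (250 ± 18.8), Cxcl16 (174 ± 16.5), Cxcl9 (3.30 ± 0.503), Cxcl5 (1.79 ± 0.544) and Cxcl11 (0.589 ± 0.265), each apart from its neighbour by more than their SDs. Cxcl11 thus stood above Cxcl9 in mean level per kb under the first heading, within the spread, and below it under the second, beyond the spread. In bulk RNA, fewer cells of a type and less RNA per cell cannot be told apart, for these levels and for every difference between them.

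**Figure D1:**
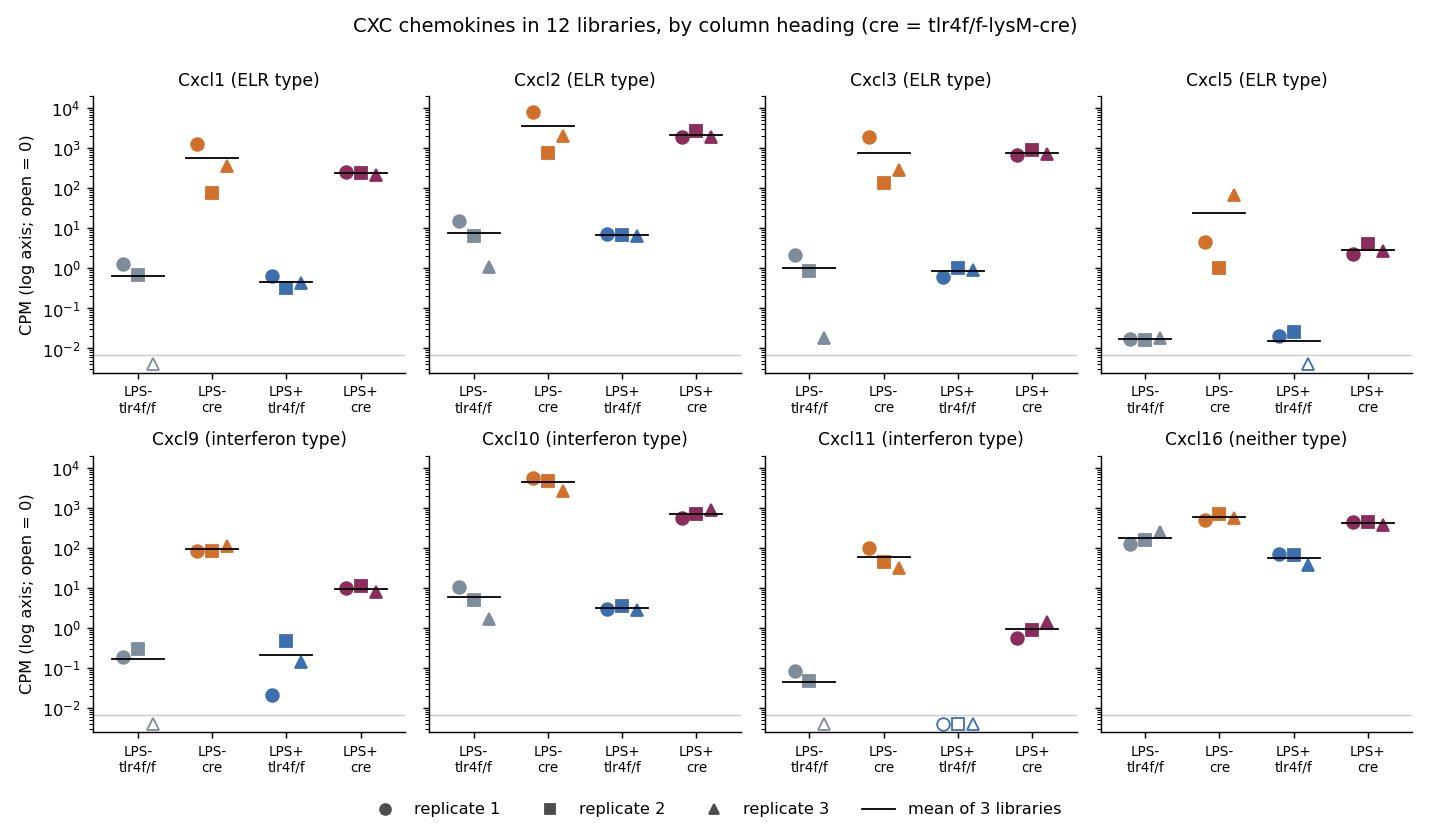
Level of each member in the 12 libraries by column heading, as CPM on a log axis, with a line at the mean of 3 libraries and open symbols for a count of 0. The 7 members other than Cxcl16 lie at or below 15.2 CPM in every library headed f/f, and the 3 libraries headed LPS- cre spread far more for Cxcl1, Cxcl2, Cxcl3 and Cxcl5 than for Cxcl9.

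The libraries headed LPS- cre had more of every member than those headed LPS- f/f. As headed, this compares the genotypes without LPS. With the headings exchanged, it compares LPS with no LPS in tlr4f/f. Genes were called when they changed more than 2-fold at an adjusted p under 0.01, from the quasi-likelihood test of edgeR and the Benjamini-Hochberg method over all genes tested. By that rule 7 of the 8 members were called, all higher in the libraries headed LPS- cre, beside 17.1% of all 14635 genes called in either direction and 9.25% called higher. The 2 groups did not overlap for any of the 8, as for 25.1% of all genes in that direction.

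Among the ELR members, Cxcl2, the most abundant, had 15.2, 6.58 and 1.08 CPM in replicates 1 to 3 headed LPS- f/f and 8150, 772 and 2012 in those headed LPS- cre. Its lowest library of the second group was thus far above the highest of the first, and the log2 fold change was 8.90 (SE 1.55, adjusted p = 0.00656 in edgeR). Cxcl1, the gene of the chemokine KC, had 1.32, 0.674 and 0 CPM against 1267, 77.3 and 368 (log2 fold change 9.73, SE 1.80, adjusted p = 0.00806). Cxcl3 had 2.16, 0.883 and 0.0187 CPM against 1877, 139 and 296 (9.55, SE 1.86, adjusted p = 0.00950). For these 3 genes replicate 1 was highest and replicate 2 lowest of the libraries headed LPS- cre. Cxcl5, which is best known from epithelial and stromal cells, had 1 count in each library headed LPS- f/f, a level at the floor of 3 counts per library, and 4.53, 1.03 and 67.7 CPM in those headed LPS- cre. Its mean was at least 471-fold higher, but its adjusted p of 0.0122 missed the threshold. Here replicate 3, not replicate 1, was highest, and without it the mean was at least 53.7-fold higher.

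The interferon type differed as strongly with less spread. Cxcl10 had 10.8, 5.04 and 1.66 CPM in the libraries headed LPS- f/f and 5674, 4673 and 2726 in those headed LPS- cre, a log2 fold change of 9.52 (SE 0.939, adjusted p = 0.00114). Cxcl9 had 0.188, 0.305 and 0 CPM against 83.2, 85.9 and 113 (9.09, SE 0.861, adjusted p = 0.00103). Cxcl11 had 0.0855, 0.0481 and 0 CPM against 98.2, 46.0 and 31.2 (10.23, SE 0.868, adjusted p = 0.000741), from 5, 3 and 0 counts in the lower group. The standard errors of these 3 genes were at most 0.939, and those of the 4 ELR members at least 1.55. Cxcl16 moved least, from 124, 161 and 256 CPM to 503, 718 and 566 (1.71, SE 0.305, adjusted p = 0.00660), with no overlap.

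The count of 7 rested on all 6 libraries. Leaving out any 1 of them left 3 or 4 members called, with log2 fold changes of 8.39 to 10.68 for Cxcl1, 7.52 to 9.89 for Cxcl2, 7.74 to 10.70 for Cxcl3, 7.15 to 10.84 for Cxcl5 and 1.51 to 2.04 for Cxcl16. The members still called in every such fit were Cxcl9, Cxcl10 and Cxcl11, whose adjusted p stayed at or below 0.00721, while those of Cxcl1, Cxcl2 and Cxcl3 lay between 0.0114 and 0.0435. The counts of all genes called in these fits are not given here, so the loss of calls cannot be read as particular to the members.

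In the libraries headed LPS+ cre against LPS+ f/f, all 8 members were called higher. As headed, this compares the genotypes under LPS, and with the headings exchanged it compares LPS with no LPS in tlr4f/f-lysM-cre. Of all 14540 genes, 21.7% were called in either direction and 10.8% higher. No member's groups overlapped, as for 33.5% of all genes in that direction.

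The replicates agreed closely for the ELR type in both groups. Cxcl2 had 7.29, 6.73 and 6.45 CPM in the libraries headed LPS+ f/f and 1894, 2737 and 1966 in those headed LPS+ cre (log2 fold change 8.33, SE 0.206, adjusted p = 7.33e-08 in edgeR). Cxcl1 had 0.650, 0.333 and 0.430 CPM against 256, 238 and 221 (8.95, SE 0.129, adjusted p = 8.66e-13). Cxcl3 had 0.608, 0.999 and 0.929 CPM against 695, 898 and 716, the largest log2 fold change of a member above the floor in this comparison (9.82, SE 0.187, adjusted p = 1.74e-09). Cxcl5 was at the floor in the libraries headed LPS+ f/f, with 1, 1 and 0 counts, and reached 2.24, 3.97 and 2.67 CPM in those headed LPS+ cre, at least 46.4-fold higher (adjusted p = 9.51e-08). Unlike the libraries headed LPS- cre, these 3 did not stand apart from each other for any ELR member.

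For the interferon type, Cxcl10 went from 2.93, 3.53 and 2.77 CPM to 547, 692 and 879 (log2 fold change 7.85, SE 0.270, adjusted p = 3.24e-06). Cxcl9 was at 0.0210, 0.461 and 0.138 CPM against 9.78, 10.9 and 8.02 (5.63, SE 0.492, adjusted p = 3.94e-05). Cxcl11 had no count in any library headed LPS+ f/f and 0.555, 0.883 and 1.40 CPM, or 24, 32 and 63 counts, in those headed LPS+ cre, at least 14.8-fold higher (adjusted p = 3.03e-05). Cxcl9 and Cxcl11 thus stayed at or below 10.9 CPM in libraries where Cxcl2 had at least 1894. Cxcl16 went from 68.8, 67.7 and 36.9 CPM to 456, 440 and 380 (2.88, SE 0.291, adjusted p = 0.000786), and it was again the member with the smallest fold.

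**Figure D2:**
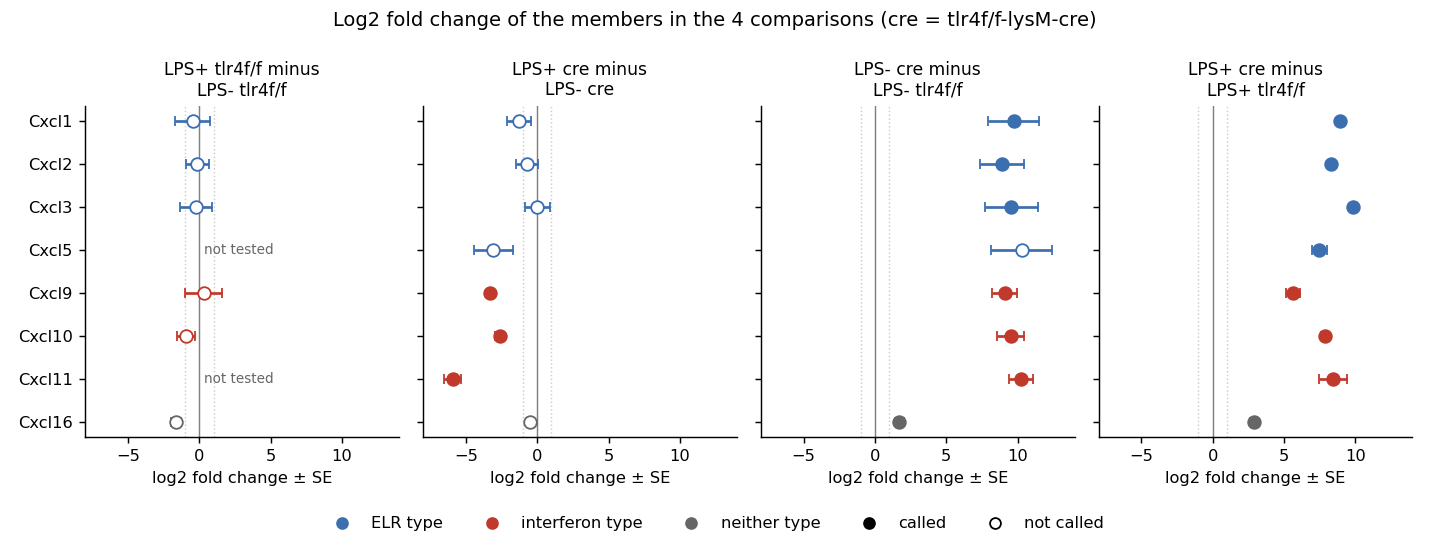
Log2 fold change of each member with its standard error in the 4 comparisons, coloured by type, with filled points for called genes and dotted lines at a fold change of 2. In LPS+ cre minus LPS- cre, the 3 interferon-type members are called lower and the 4 ELR members are not called. Points of Cxcl5 and Cxcl11 against a group at the floor depend on the prior count.

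The 2 types had different calls in the comparison of the libraries headed LPS+ cre and LPS- cre. As headed, this is LPS against no LPS in tlr4f/f-lysM-cre, and with the headings exchanged it compares tlr4f/f-lysM-cre with tlr4f/f, both under LPS. All 3 interferon-type members were called lower in the libraries headed LPS+ cre, and no ELR member was called. Of all 14234 genes, 6.08% were called in either direction and 3.65% lower.

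Cxcl11 fell most, from 98.2, 46.0 and 31.2 CPM in the libraries headed LPS- cre to 0.555, 0.883 and 1.40. It fell by 5.93 on the log2 scale (SE 0.589, adjusted p = 0.00192 in edgeR). Cxcl9 fell by 3.29 (SE 0.192, adjusted p = 0.000749), from 83.2, 85.9 and 113 CPM to 9.78, 10.9 and 8.02. Cxcl10 fell by 2.61 (SE 0.317, adjusted p = 0.00327), from 5674, 4673 and 2726 CPM to 547, 692 and 879. In all 3 genes the highest library headed LPS+ cre was below the lowest headed LPS- cre, as in 22.5% of all genes. The size of the fall hardly moved when a library was left out (Cxcl9 -3.38 to -3.15, Cxcl10 -2.88 to -2.40, Cxcl11 -6.34 to -5.35). The calls did: without replicate 1 or without replicate 2 headed LPS+ cre none of the 3 was called, and without replicate 3 of that group 1 was. Over all genes those fits called 4, 7 and 15 in place of 865, so the loss was not particular to the members. Across all fits with a library left out, Cxcl9, Cxcl10 and Cxcl11 had adjusted p-values of at most 0.0119, 0.0291 and 0.0212.

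The ELR members overlapped between these groups. Cxcl3 had 1877, 139 and 296 CPM in the libraries headed LPS- cre and 695, 898 and 716 in those headed LPS+ cre, and its log2 fold change was -0.00 (SE 0.872, interval -1.71 to 1.704, adjusted p = 0.997). For Cxcl2 it was -0.73 (SE 0.774, interval -2.25 to 0.79, adjusted p = 0.520) and for Cxcl1 -1.27 (SE 0.848, interval -2.93 to 0.40, adjusted p = 0.310). The intervals, here and below, come from the SE by a normal approximation. It does not allow for the few libraries, so they are narrower than the test implies. The intervals are wide even so, and a 3-fold change of these genes in either direction is within that of Cxcl3. They rest on the library with the highest levels. Without replicate 1 headed LPS- cre the log2 fold changes of Cxcl1, Cxcl2 and Cxcl3 were 0.08, 0.65 and 1.81, that of Cxcl3 with an adjusted p of 0.0171. Cxcl5 had a log2 fold change of -3.06 (SE 1.38, adjusted p = 0.147), which was 0.07 without replicate 3 headed LPS- cre. Cxcl16 went from 503, 718 and 566 CPM to 456, 440 and 380 (-0.48, SE 0.155, adjusted p = 0.0631), without overlap but below the fold threshold.

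As a description with no test, the difference between the types is the median log2 difference of the 4 ELR members minus that of the 3 interferon-type members, on the log2 CPM scale with a prior count of 2. The SD beside it is of another quantity, the mean of the ELR members minus that of the interferon type in each library. For it the variances of the groups compared were added. The difference of medians was 2.997 (SD 1.72 over replicates) for LPS+ cre minus LPS- cre and 2.83 without Cxcl5 and Cxcl11, which are at or near the floor under the f/f headings. For LPS+ cre minus LPS+ f/f it was 2.88 (SD 0.646) and 2.14 without those genes. The medians of the edgeR log2 fold changes there were closer, 8.64 for the ELR type and 7.85 for the interferon type. The size of the difference thus depends on the scale. For LPS- cre minus LPS- f/f the difference of medians was -0.02 (SD 1.81) and 0.18 without Cxcl5 and Cxcl11, so the types did not differ beyond the spread there. For LPS+ f/f minus LPS- f/f, where every member but Cxcl16 was low, it was 1.06 (SD 0.842) and 0.66 without them. On this scale Cxcl1, Cxcl2 and Cxcl3 differed by 0.51, 0.50 and 0.79, but in edgeR by -0.48, -0.14 and -0.26. The edgeR medians of the members tested were -0.26 for the ELR type and -0.31 for the interferon type. A difference between the types was thus seen on the log2 CPM scale only. The 4 comparisons share libraries and are not independent.

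The ratio of Cxcl2 to Cxcl10 within a library needs no scaling to other genes. Per kb it was 1.46, 0.168 and 0.750 in replicates 1 to 3 headed LPS- cre and 3.52, 4.02 and 2.27 in those headed LPS+ cre, with no overlap. In the libraries headed LPS- f/f it was 1.42, 1.33 and 0.663, and in those headed LPS+ f/f 2.53, 1.94 and 2.37, from 58 to 888 counts of Cxcl2 per library. All 6 libraries headed LPS+ were thus above all 6 headed LPS-. As headed, this divides LPS from no LPS. With the headings LPS- cre and LPS+ f/f exchanged, it divides tlr4f/f-lysM-cre from tlr4f/f. The lowest ratio, in replicate 2 headed LPS- cre, came with the fewest counts of Cxcl2 (24681) in that group and a Cxcl10 level of 4673 CPM, between those of its other 2 replicates.

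Ratios within a type were compared between the same groups. Cxcl2 exceeded Cxcl1 per kb 5.67, 8.81 and 4.82 times in the libraries headed LPS- cre and 6.51, 10.1 and 7.86 times in those headed LPS+ cre, with overlap. Cxcl2 exceeded Cxcl3 by 4.08, 5.22 and 6.38 times in the first group and by 2.56, 2.87 and 2.58 in the second, without overlap. Cxcl2 and Cxcl3 share 126 overlapping words of 50 bases between their annotated transcripts, the only such pair among the 28 pairs of members, so the division of reads between them is uncertain. Cxcl10 exceeded Cxcl11 per kb 84.2, 148 and 128 times in the libraries headed LPS- cre and 1436, 1144 and 916 times in those headed LPS+ cre, so the interferon-type members did not keep their proportions.

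**Figure D3:**
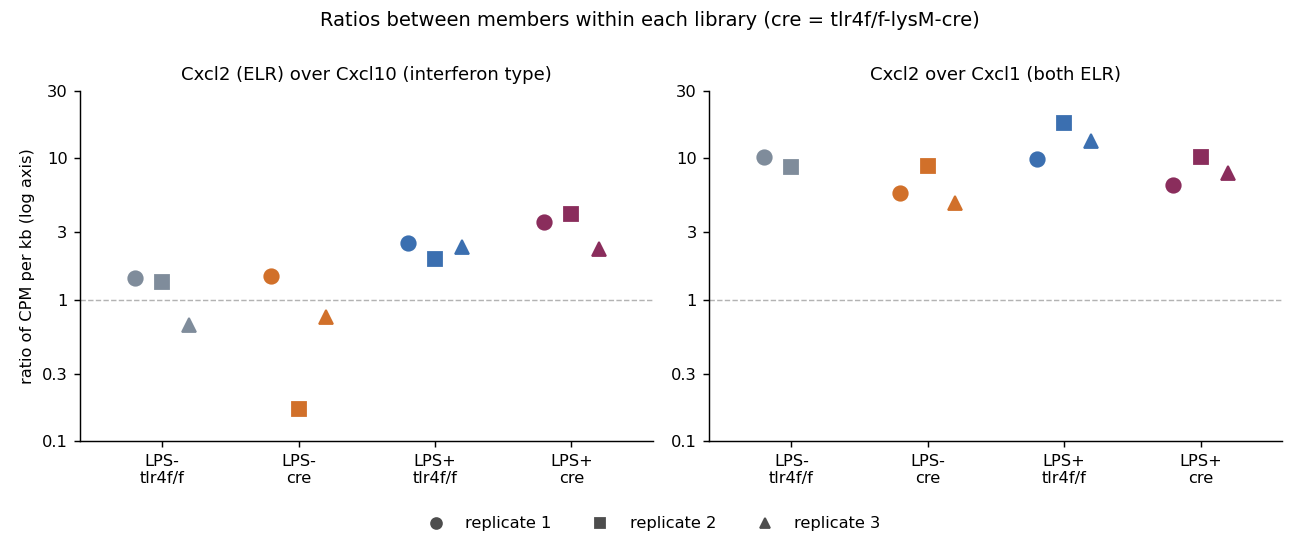
Ratio of Cxcl2 to Cxcl10 (left) and of Cxcl2 to Cxcl1 (right) in each library, from CPM per kb on log axes, with a dashed line at 1. Replicate 3 headed LPS- f/f has no count of Cxcl1 and no point at the right. The 6 libraries headed LPS+ lie above the 6 headed LPS- at the left, between 1.94 and 4.02, while at the right the groups headed cre overlap. With the headings LPS- cre and LPS+ f/f exchanged, the division at the left is that of the genotypes.

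The libraries headed LPS+ f/f and LPS- f/f gave no call among the 6 members tested. As headed, this compares LPS with no LPS in tlr4f/f, and with the headings exchanged it compares the genotypes without LPS. Nor was any of the other genes called by edgeR (0% of 14701), although 3624 had an unadjusted p under 0.05, among them Cxcl16 of the members. DESeq2 called 467 genes and 1 member, Cxcl16, and limma voom called no member. Cxcl16 had 124, 161 and 256 CPM in the libraries headed LPS- f/f and 68.8, 67.7 and 36.9 in those headed LPS+ f/f, without overlap (log2 fold change -1.61, SE 0.348, adjusted p = 0.0706 in edgeR). Groups apart in this direction were found for 18.8% of all genes. The log2 fold changes of Cxcl1 (-0.48), Cxcl2 (-0.14), Cxcl3 (-0.26), Cxcl9 (0.29) and Cxcl10 (-0.91) had standard errors between 0.628 and 1.30. Cxcl5 and Cxcl11, with at most 5 counts in any of these libraries, were too low to be tested.

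The interaction of genotype and LPS, whose coefficient is identical under both readings, was not called for any member, beside 1.04% of 15775 genes. By unadjusted p under 0.05 there were 3 members, beside 23.5% of all genes, and DESeq2 and limma voom called none. The largest coefficient against its error was that of Cxcl9, -3.48 on the log2 scale (SE 1.06, adjusted p = 0.0771 in edgeR). Cxcl10 had -1.70 (SE 0.737, adjusted p = 0.195) and Cxcl16 1.15 (SE 0.407, adjusted p = 0.116). The ELR members Cxcl1, Cxcl2 and Cxcl3 had coefficients of -0.76, -0.57 and 0.28 with standard errors of at least 1.22. For Cxcl5 and Cxcl11, which were at the floor in a group, the standard errors were 4.17 and 6.11 and the intervals ran from -10.96 to 5.38 and from -13.78 to 10.17.

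Cxcl5 was set beside genes of stromal cells. In replicates 1 to 3 headed LPS- cre, where Cxcl5 had 4.53, 1.03 and 67.7 CPM, the summed level of 7 fibroblast and stroma markers (Col1a1, Col1a2, Col3a1, Dcn, Lum, Pdgfrb, Fn1) was 1289, 269 and 2046 CPM. Cxcl12, a chemokine of stromal cells, had 4.78, 0.344 and 9.62 CPM in the same order. Among these 3 the library with the most stroma marker RNA had the most Cxcl5 and the one with the least had the least. Under the other headings the sums were 11.7 to 898 CPM (LPS- f/f), 83.3 to 99.1 (LPS+ f/f) and 139 to 164 (LPS+ cre), and the library headed LPS- f/f with 898 CPM had 1 count of Cxcl5. In replicates 1 to 3 headed LPS+ cre, Cxcl5 had 2.24, 3.97 and 2.67 CPM, the stroma markers 147, 164 and 139 and Cxcl12 0.601, 0.359 and 0.666, so the library with the most Cxcl5 had the least Cxcl12. Pdgfrb of this list was called higher in the libraries headed LPS+ cre than in those headed LPS+ f/f, and Col1a1 led 3 markers called lower there than in those headed LPS- cre. The first of these comparisons called 10.8% of all genes higher, and the second called 3.65% lower. The part of stromal cells in the level of Cxcl5 was not tested.

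**Figure D4:**
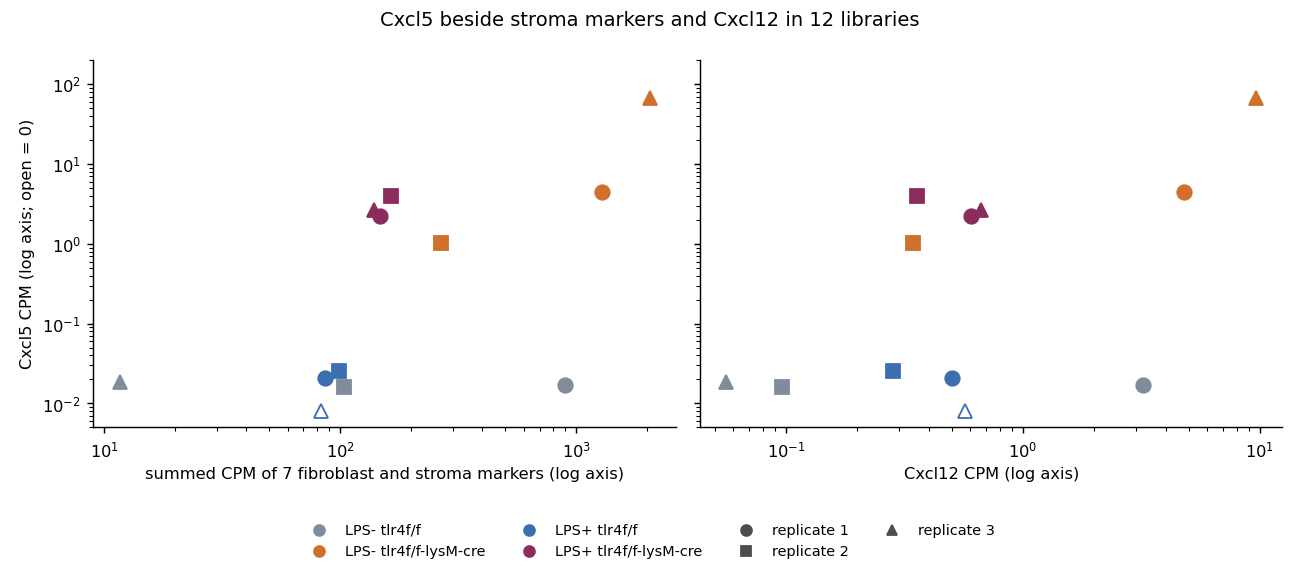
CPM of Cxcl5 in the 12 libraries against the summed CPM of 7 fibroblast and stroma markers (left) and against the CPM of Cxcl12 (right), on log axes, with colour for the heading, shape for the replicate and an open symbol for a count of 0. Replicate 3 headed LPS- cre has the highest value on every axis (67.7, 2046 and 9.62 CPM), and the libraries headed f/f stay at or below 0.0256 CPM of Cxcl5 at any marker level.

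Markers of leukocytes other than macrophages were at lower levels. The 9 neutrophil markers summed to 99.8 to 493 CPM in the libraries headed LPS- cre, 103 to 121 in those headed LPS+ cre and at most 36.7 under the f/f headings. Much of these sums was Csf3r, with means of 240 ± 145 and 106 ± 10.0 CPM under the LPS- and LPS+ cre headings. S100a8 had 52.4 ± 63.6 CPM in the libraries headed LPS- cre against 4.10 ± 4.34 in those headed LPS- f/f. S100a9 had 12.5 ± 17.7 against 1.43 ± 1.20 and Ltf 2.43 ± 3.37 against 0.298 ± 0.219, while Mpo was lower (0.741 ± 0.618 against 1.23 ± 1.47). None of the 7 neutrophil markers tested was called between these headings. Ly6g and Retnlg had at most 1 count in any library, and Elane had at most 0.394 CPM in mean. Ly6g was at 0 in every group but that headed LPS- cre. Camp led 3 of the 9 neutrophil markers called higher in the libraries headed LPS+ cre than in those headed LPS+ f/f (log2 fold change 3.31, SE 0.693), and Mpo was called lower. That comparison called 10.8% of all genes higher and 21.7% in either direction. The 7 T and NK cell markers summed to at most 3.02 CPM, with Ifng, the gene of interferon-gamma, which induces Cxcl9, at no more than 0.116 CPM in any library. The 5 dendritic cell markers summed to 4.75 to 13.1 CPM in the libraries headed LPS- cre, where Cxcl9, Cxcl10 and Cxcl11 were highest, and to 2.90 to 3.71, 0.379 to 0.733 and 0.206 to 0.770 in those headed LPS+ cre, LPS+ f/f and LPS- f/f. Xcr1 led this list, called higher in each set headed cre than in the f/f set of the same LPS heading. Much of the sums headed LPS- cre was Xcr1 (4.01 ± 1.43 CPM) and Ccr7 (3.59 ± 4.47). Flt3 and Siglech of this list had at most 2 counts in any library. Zbtb46 had at most 0.434 CPM in mean and was not called where it could be tested. The 4 endothelial markers summed to 67.4 to 166 CPM in the libraries headed LPS- cre and 36.7 to 89.8 in those headed LPS- f/f, but to 86.5 to 95.3 in those headed LPS+ cre and 109 to 119 in those headed LPS+ f/f. Pecam1 was called higher with cre under both LPS headings and Kdr under LPS+, while Vwf had log2 fold changes of -0.94 and -0.51 and Cdh5 of 2.80 and -0.33, none of them called. The part of these cells in the levels was not tested.

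Genes of the signalling arms were called in the same comparisons. Of 14 genes of the NF-kB arm, a list of subunits, inhibitors, cofactors and 3 cytokines that NF-kB induces, 14 were called higher in the libraries headed LPS- cre than in those headed LPS- f/f and 13 in those headed LPS+ cre than in those headed LPS+ f/f. Of all genes, 9.25% and 10.8% were called higher in these comparisons. Il6 had the largest log2 fold change of the list in both (10.62 and 9.87). Between the 2 sets headed cre, 6 of the 14 were called lower with LPS+ (Bcl3, Nfkb2, Nfkbia, Nfkbib, Nfkbiz and Tnfaip3), beside 3.65% of all genes. Tnfaip3, a feedback inhibitor of NF-kB, fell most, by 2.12 on the log2 scale (SE 0.146, adjusted p = 0.000960 in edgeR). None of the 3 cytokines of the list was called there, with log2 fold changes of -1.95 for Il6 (adjusted p = 0.0245), -1.28 for Tnf (adjusted p = 0.0930) and -0.70 for Il1b (adjusted p = 0.387).

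Of 14 genes of the interferon arm, 8 were called higher in each of the 2 comparisons of cre with f/f headings. Of all genes, 9.25% were called higher between the LPS- headings and 10.8% between the LPS+ headings. Between the sets headed cre, Ifnb1, Irf7 and Stat2 were called lower with LPS+, beside 3.65% of all genes. Ifnb1, the gene of interferon-beta, had a mean of 3.82 ± 0.834 CPM in the libraries headed LPS- cre and 0.427 ± 0.111 in those headed LPS+ cre, a fall of 3.15 on the log2 scale (SE 0.349, adjusted p = 0.00261 in edgeR), near that of Cxcl9. It had at most 2 counts in any library headed LPS- f/f and none in those headed LPS+ f/f. Irf7 fell by 2.17 (SE 0.121, adjusted p = 0.000724) and Stat2 by 1.10 (SE 0.142, adjusted p = 0.00385). Irf1 (-0.39) was not called. In the comparison of the f/f headings with each other, no gene of either arm was called.

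Genes that act on chemokine mRNA were split. Zfp36 (tristetraprolin) and Zc3h12a (Regnase-1) speed the decay of inflammatory mRNAs, and both were called higher in each comparison of cre with f/f headings, with Zc3h12a leading the 8 genes of this list at 4.32 and 4.39 on the log2 scale. In all, 2 of the 8 were called higher and 1 lower between the LPS- headings, and 3 higher and 2 lower between the LPS+ headings. Of all genes, 9.25% were called higher and 17.1% in either direction between the LPS- headings. Between the LPS+ headings these shares were 10.8% and 21.7%. Between the sets headed cre, Zfp36 was the only gene of the list called and fell by 1.81 (SE 0.150, adjusted p = 0.00125 in edgeR). Among 8 enzymes that cut chemokines, Adam17, a sheddase of CXCL16, was called higher in the libraries headed LPS- cre (567 ± 140 CPM against 227 ± 21.0) and LPS+ cre (908 ± 13.1 against 285 ± 19.98). Adam10 was not called in any comparison. Mmp9 was called higher in the libraries headed LPS+ cre (361 ± 13.4 CPM against 41.6 ± 4.30), and Furin was called lower there than in those headed LPS- cre (154 ± 5.60 against 470 ± 145).

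Receptors of CXC ligands were low, apart from Cxcr4, the receptor of CXCL12. Of 8 receptor genes at most 3 could be tested in a comparison. Cxcr4 had 157 ± 190 CPM in the libraries headed LPS- f/f and 51.3 ± 8.43 in those headed LPS+ f/f, against 3.79 ± 2.03 and 1.85 ± 0.327 in those headed LPS- and LPS+ cre. It was called lower in the libraries headed LPS+ cre than in those headed LPS+ f/f (log2 fold change -4.78, SE 0.167, adjusted p = 1.47e-08 in edgeR), as were Cxcr3, the receptor of the interferon type (0.1002 against 1.84 CPM), and Cxcr2, the receptor of the ELR type (0.0151 against 0.454 CPM, from at most 29 counts in a library). That comparison called 21.7% of all genes in either direction. Between the LPS- headings Cxcr3 had 0.433 ± 0.373 CPM with cre against 5.07 ± 1.20 and was not called (log2 fold change -3.54, adjusted p = 0.0112), nor was Cxcr4 (-5.37, adjusted p = 0.0125). Cxcr6, the receptor of CXCL16, had at most 15 counts in any library.

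Other CXC ligands were called in a single comparison. Of 7 listed, 4 could be tested, and calls were made only between the sets headed LPS+, where Pf4 (48.1 ± 4.94 against 17.8 ± 1.82 CPM) and Ppbp (0.877 ± 0.266 against 0.117 ± 0.0630 CPM) were higher and Cxcl14 (13.6 ± 1.99 against 29.8 ± 1.83 CPM) lower with cre. That comparison called 21.7% of all genes in either direction. Pf4 and Ppbp, the platelet chemokines, are part of the ELR locus. Outside the chemokines, Mthfd2l was the only 1 of 7 neighbours of the ELR locus that could be tested, and it was called only between the sets headed LPS+ (log2 fold change 1.08, SE 0.142). At the interferon-type locus, Ppef2 was called higher in the libraries headed LPS- cre (1.62 ± 0.222 CPM against 0.0718 ± 0.0575) and lower in those headed LPS+ cre (0.0711 ± 0.0169), and Naaa was called lower in the second of these comparisons. Art3, whose span covers Cxcl10 and Cxcl11 on the other strand, stayed at or below 0.305 CPM in mean.

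At the Cxcl16 locus, Zmynd15 was the 1 of 6 neighbours called, between the sets headed LPS+ (44.5 ± 2.53 CPM with cre against 5.53 ± 1.51, log2 fold change 3.02, SE 0.189, adjusted p = 5.98e-06 in edgeR). Of all genes, 21.7% were called in either direction in that comparison. Cxcl16 and Zmynd15 are annotated on opposite strands and overlap by 552 bases. No source used here says that the counting used strand, so reads of the overlap cannot be assigned to either gene, and the level of each is uncertain to that extent.

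Across the 12 libraries, log2 levels of the ELR members Cxcl1, Cxcl2 and Cxcl3 followed each other with Pearson's r between 0.992 and 0.997. Within the interferon type r lay between 0.943 and 0.976, and between Cxcl5 and the other ELR members between 0.881 and 0.910. Between the types it reached from 0.808 (Cxcl3 and Cxcl11) to 0.965 (Cxcl2 and Cxcl10), which overlaps the range within each type. These values describe points that fall into a low and a high set of libraries, so most of each r comes from that split. The genes most like Cxcl1, Cxcl2 and Cxcl3 were Il1b, first for each with r of at least 0.993, and Kmt5a, with Nploc4 for Cxcl1 and Cxcl2 and Tpm4 for Cxcl3. Cxcl10 was most like Gch1, Mndal and Nfkb2 (r = 0.997 each), Cxcl11 like Steap4 (0.995) and Foxp4 (0.994) and Cxcl9 like Gm26584, Gm36043 and Sla2 (0.987 to 0.988). Cxcl16 was most like its neighbour Zmynd15 (0.993), then Trim34a (0.980) and Spidr (0.979), and Cxcl5 like Zfp131, 2900011O08Rik and Ptpn12 (0.974 to 0.978). Of these 24 places, Spearman's rho kept 4 among its first 20 genes and the 6 libraries headed cre alone kept 2, so the names depend on the split of low and high libraries.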

How the data were processed

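RNA from 12 BMDM libraries, 3 per heading, was sequenced by the authors as paired reads. Per the labels, rRNA was removed with Ribo-Zero, although the libraries are also named polyA, and reads were trimmed (Trimmomatic 0.36), checked (FastQC), aligned to mm10 (HISAT2) and counted (HTSeq). The deposited values are raw read counts per transcript, in 115140 rows. For each of 43131 genes the transcript with the highest total was kept. Depth was 33577087 to 56445268 counts per library (median 45330681), and floors of 3 counts per library cover counting error only.

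Each comparison used its 6 libraries in edgeR 4.0.16 (filterByExpr, TMM, quasi-likelihood test, Benjamini-Hochberg adjustment), and the interaction all 12. Genes were called when they changed more than 2-fold at an adjusted p under 0.01. The test was run on simulated counts first. Counts of list genes called are to be read beside the share of all genes called in either direction. That was 17.1% between the LPS- headings, 21.7% between the LPS+ headings, 6.08% between the cre headings and 0% between the f/f headings. CPM per kb used the deposited transcript length. R 4.3.3, limma 3.58.1, DESeq2 1.42.0 and Python 3.11.15 were used.

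The genes named were the members, Tlr4 and Lyz2, the 3 genes most like each member by Pearson's r, the called gene with the largest change in each list and every called gene of the lists of ligands, receptors and enzymes. Other genes named from the NF-kB and interferon lists were chosen after their values were seen. So were Art3, Adam10, Cxcr6, Naaa, Zfp36, Zfp36l1, Zfp36l2, Mpo, Ly6g, Csf3r, Elane, Retnlg, Vwf, Cdh5, Kdr, Cxcl12 and Ifng. The same holds for S100a8, S100a9, Ltf, Flt3, Siglech, Zbtb46 and Ccr7. Some genes that the rule names are not reported here. The members and all lists were chosen with earlier results of these data known. Same-numbered replicates all deviated together (r of 0.310 to 0.519 over 5000 genes) only between the 2 sets headed LPS+. There the numbers were taken as pairs from the data. The tests given above used the group alone and not these pairs. The replicate block, which does use them, was an alternative and left the count of members called in that comparison unchanged. Alternatives were other tools, filters, scalings, transcript sums, a replicate block and each library left out.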

Additional observations from a re-analysis of the deposited data

How the results depend on the processing

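With 3 libraries per heading, calls depended on single libraries more than directions did. Between LPS+ f/f and LPS- f/f, DESeq2 called 1 member, and the log2 fold changes of Cxcl1, Cxcl2 and Cxcl3 became 0.23, 0.45 and 0.57 with the replicate block, and that of Cxcl9 became -0.65 with limma voom. Leaving out a library gave -1.05 to 0.50 for Cxcl1, -0.66 to 0.86 for Cxcl2, -0.83 to 0.92 for Cxcl3 and -0.98 to 1.07 for Cxcl9, and 0 members called.

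Between LPS+ and LPS- cre, 3 members were called, 1 with the replicate block and 0 to 3 without a library. The log2 fold change of Cxcl3, near 0, was 0.92 with the block, 0.76 with limma voom, 0.0151 with no filter and 0.00 with transcripts summed (0.00462 before rounding), and -0.50 to 1.81 without a library. The same ranges were -1.78 to 0.0837 for Cxcl1, -1.21 to 0.65 for Cxcl2 and -3.62 to 0.0728 for Cxcl5. Same-numbered replicates correlated at -0.208 to 0.204 here, -0.0463 to 0.358 between the f/f headings and 0.0142 to 0.580 between the LPS- headings. In each the lowest value was near or below 0, so the numbers were not taken as pairs. Between the LPS- headings replicates 1 and 2 did deviate together (r of 0.580 and 0.307), and whether the numbers are pairs there is not known. The block changed no other count of members called.

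Between LPS- cre and LPS- f/f, 7 members were called, 4 with no filter, 3 where each library had to hold at least 10 counts (of 3 tested) and 3 to 4 without a library. Between LPS+ cre and LPS+ f/f, 8 were called, and 5 of 5 tested under that minimum. In the interaction no setting called a member, and leaving out a library gave -1.69 to 0.59 for Cxcl1, -1.55 to 0.82 for Cxcl2, -0.85 to 2.10 for Cxcl3 and -3.42 to 0.32 for Cxcl5.

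The difference between the types was -0.02 for the LPS- headings, 0.18 without Cxcl5 and Cxcl11 (an alternative chosen after seeing the data) and -0.999 to 0.70 without a library. For the LPS+ headings it was 2.88, 2.18 as a mean, 2.14 without Cxcl5 and Cxcl11 and 2.04 to 3.77 without a library. Between LPS+ cre and LPS- cre it was 2.997, 3.65 as a mean and 2.13 to 4.01 without a library, and between the f/f headings 1.06, and 0.63 to 1.35 without a library. Of the 24 likeness places, 4 were kept by Spearman's rho and 2 in the 6 libraries headed cre. Except where a value or the setting's own construction shows it, the cause was not tested.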
